A study of Homo sapiens with 6 samples.

Results

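The azurophil, or primary, granule is the first granule that a developing neutrophil makes, and 10 genes for its proteases and for the proteins that process, restrain or store them are described here in NB4 cells. The genes were ELANE, PRTN3, AZU1, CTSG, CFD, PRSS57, MPO, CTSC, CST7 and SRGN, chosen by gene symbol, and each matched 1 of the 61806 genes of the count table. NB4 is an established human line of acute promyelocytic leukaemia. The 3 CD69-overexpressing libraries were made from cells carrying a lentiviral CD69 construct, where CD69 is a C-type lectin of activated leukocytes. The 3 control libraries came from matched vector control cells, whose genotype is labelled wild-type. All 6 libraries were made from poly(A) RNA of undrugged cells in logarithmic growth. They carry the same batch number, and each group may stand for 1 transduced population, since no separate transductions are described.

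Azurophil proteases are made at the promyelocyte stage as inactive precursors. Cathepsin C, the product of CTSC, removes a short amino-terminal peptide from them and so activates them, cystatin F, the product of CST7, inhibits cathepsin C and its relatives, and the proteoglycan serglycin, the product of SRGN, binds the basic proteases for storage. Myeloperoxidase, the product of MPO, is the haem enzyme of the same granule and a classical marker of the stage.

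Total counts were 51543550 to 57463020 per library, but values of 4 and 8 were in surplus among low counts, so that 1 fragment may stand for about 4 counts and true depth may be lower. CD69 itself was at 98.3, 99.1 and 95.7 CPM (counts scaled to a common library total, with TMM factors) in overexpressing replicates 1, 2 and 3, against 80.4, 81.9 and 70.6 CPM in the controls. Its log2 fold change was 0.33 (SE 0.07; adjusted p = 0.0153, here and below from edgeR's quasi-likelihood test with Benjamini-Hochberg adjustment), and the call was lost without overexpressing replicate 2 (adjusted p = 0.0618). Overexpressing replicate 1 lay nearer the controls than replicates 2 and 3 did: across genes its correlation with them was 0.957 to 0.958, against 0.942 to 0.945 for the others. Of the granulocyte precursor markers ANPEP was at 399 ± 17.5 CPM in overexpressing cells and 463 ± 27.8 CPM in controls (SD, n = 3 each), and CSF3R and CD33 were above 40 CPM in every library. MS4A3 was lower, at 106 ± 4.61 CPM in overexpressing cells and 174 ± 1.59 CPM in controls, as was KIT, at 0.642 ± 0.202 CPM in overexpressing cells and 3.06 ± 0.547 CPM in controls. Of the 8 listed precursor markers 1 was higher (AZU1, itself among the 10 granule genes) and 2 were lower, and MPO was near 1 CPM. Markers of erythroid and megakaryocyte cells summed to 5.05 to 6.32 CPM in overexpressing cells and 5.43 to 6.55 CPM in controls, most of it EPOR, with GP9 at 0.

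Over all genes tested, 24.1% passed the test between the groups, 14.2% as higher and 9.94% as lower in overexpressing cells. All 10 granule genes passed the filter on low counts and were tested. Of these, 6 were higher (CST7, PRTN3, ELANE, AZU1, SRGN and CFD), CTSC was lower, and CTSG, MPO and PRSS57 did not pass the test. The groups did not overlap for the 7 genes that passed, where 42.3% of all genes tested had groups that did not overlap. The median log2 fold change of the 10 genes was 0.67, against 0.01 over all genes tested. In bulk RNA a change in the share of cells that express a gene and a change in RNA per cell cannot be told apart.

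**Figure D1:**
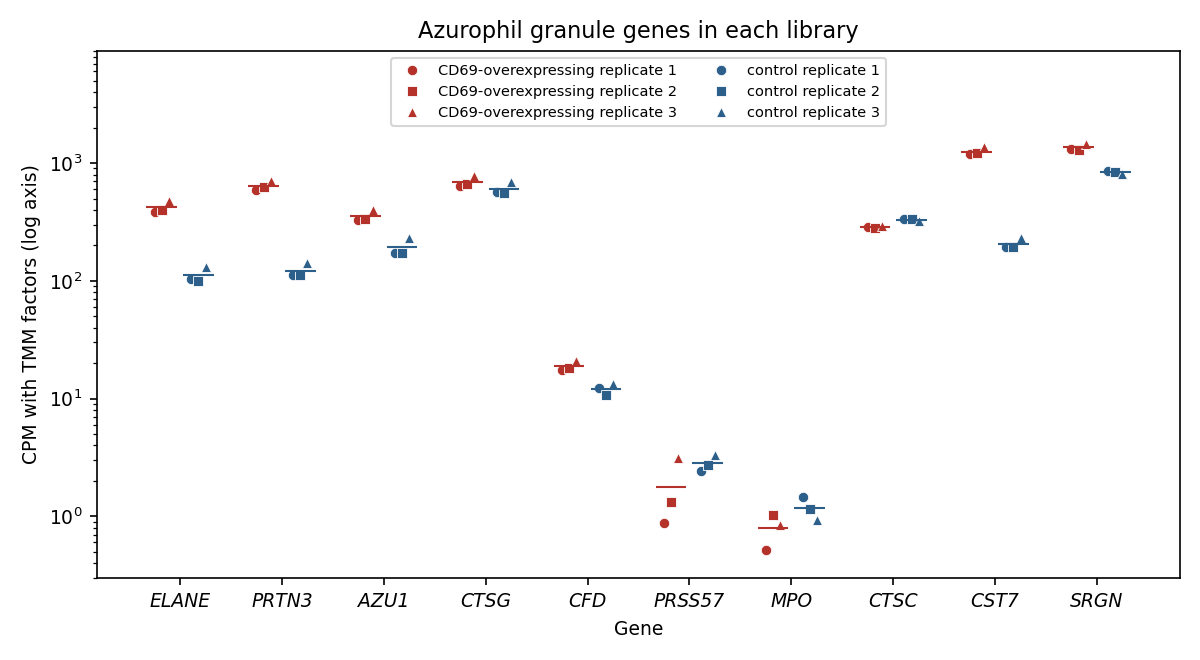
CPM with TMM factors on a log axis for each granule gene, with 1 point per library and a line at the mean of each group of 3. The overexpressing libraries lie above all controls for ELANE, PRTN3, AZU1, CFD, CST7 and SRGN and below them for CTSC, while MPO and PRSS57 lie near 1 CPM.

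The serine proteases differed widely in how much they changed. PRTN3 (ENSG00000196415; GRCh38 chromosome 19, 840960 to 848175, plus strand), the gene of proteinase 3, was at 596, 625 and 700.3 CPM in overexpressing replicates 1, 2 and 3 and at 111, 112 and 141 CPM in the controls. Every overexpressing library was thus more than 4 times the highest control. The log2 fold change was 2.40 (SE 0.12; edgeR quasi-likelihood test, adjusted p = 1.95e-05). ELANE (ENSG00000197561; chromosome 19, 851014 to 856247, plus strand), the gene of neutrophil elastase, was at 387, 398 and 481 CPM in overexpressing cells and at 104, 100.2 and 131 CPM in controls, again with wide separation. Its log2 fold change was 1.92 (SE 0.13; adjusted p = 7.56e-05).

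AZU1 (ENSG00000172232; chromosome 19, 825097 to 832018, plus strand) encodes azurocidin, an antimicrobial protein of the same family that lacks protease activity. It was at 329, 333 and 397 CPM in overexpressing cells and at 173, 173 and 230 CPM in controls, so the groups were closer than for PRTN3 and ELANE but did not meet. The log2 fold change was 0.88 (SE 0.13; adjusted p = 0.00263). CFD (ENSG00000197766; chromosome 19, 859643 to 863630, plus strand) encodes complement factor D, the protease that starts the alternative complement pathway by cleaving factor B. It was much less abundant, at 17.6, 18.1 and 20.7 CPM in overexpressing cells and 12.3, 10.7 and 13.4 CPM in controls, and rose by 0.63 on the log2 scale (SE 0.12; adjusted p = 0.00847).

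CTSG (ENSG00000100448; chromosome 14, 24573522 to 24576260, minus strand), the gene of the chymotrypsin-like cathepsin G, did not pass the test. It was at 641, 662 and 775 CPM in overexpressing cells and at 566, 562 and 695 CPM in controls, and control replicate 3 lay above overexpressing replicates 1 and 2. The log2 fold change was 0.19 (SE 0.11; adjusted p = 0.258), with a 95% interval of -0.06 to 0.44 that lies below the changes of PRTN3, ELANE and AZU1.

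PRSS57 (ENSG00000185198; chromosome 19, 685546 to 695498, minus strand), which encodes a neutrophil serine protease that cleaves after arginine, was scarce. Its counts were 49, 74 and 160 in overexpressing cells and 136, 156 and 184 in controls. Overexpressing replicate 3 lay within the control range and replicates 1 and 2 below it. The log2 fold change was -0.67 (SE 0.45; adjusted p = 0.323), with a 95% interval of -1.71 to 0.36. Without overexpressing replicate 3 the gene was called lower, by -1.36 (adjusted p = 0.0247), so that library decides the call.

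Together the 6 serine protease genes held 1972, 2037 and 2376 CPM in overexpressing cells and 969, 960 and 1214 CPM in controls, a ratio of group means of 2.03. The shares of the 4 abundant genes varied little within each group. PRTN3 made up 30.1 ± 0.61% of the sum in overexpressing cells and 11.6 ± 0.079% in controls (SD, n = 3 each). CTSG made up 32.5 ± 0.074% in overexpressing cells and 58.1 ± 0.70% in controls. ELANE was at 19.8 ± 0.37% in overexpressing cells, against 10.6 ± 0.17% in controls, while AZU1 was at 16.6 ± 0.19% in overexpressing cells and 18.3 ± 0.61% in controls. PRSS57, in contrast, made up 0.0443, 0.0644 and 0.132% in overexpressing replicates 1, 2 and 3 and 0.250 to 0.287% in controls. Before any correction for length, CTSG thus held the majority of the sum in control cells. In overexpressing cells PRTN3 and CTSG were near each other on that scale.

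Ratios within a library do not depend on scaling. PRTN3 counts were 1.54, 1.57 and 1.46 times those of ELANE in overexpressing cells and 1.07, 1.11 and 1.08 times in controls. AZU1 counts were 0.850, 0.837 and 0.825 times those of ELANE in overexpressing cells and 1.67, 1.72 and 1.76 times in controls. Neither pair of ranges overlapped between the groups. These ratios are given as a description with no test.

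**Figure D2:**
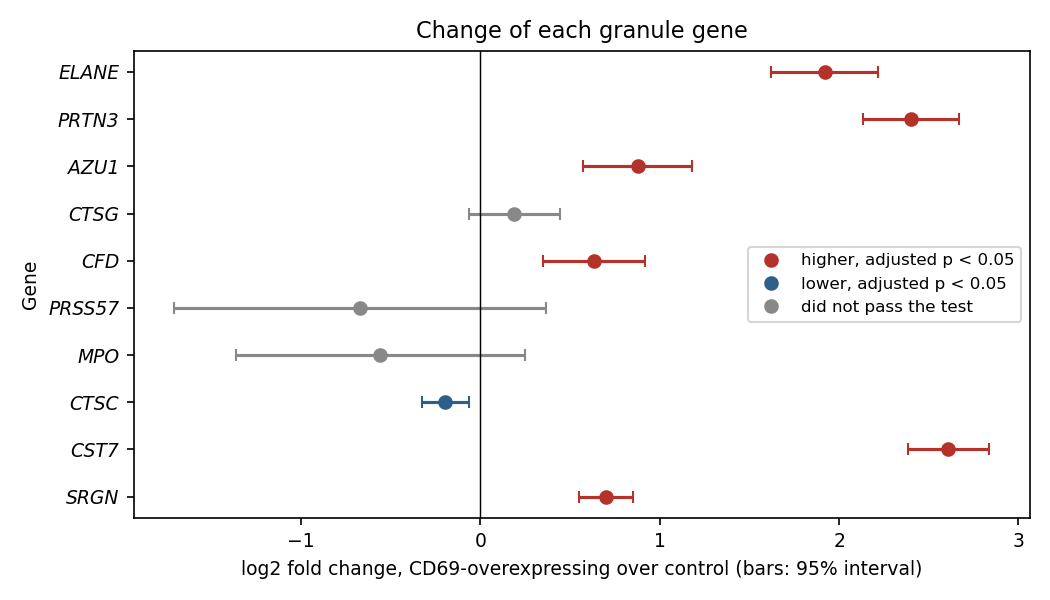
Log2 fold change of each granule gene, overexpressing over control, with its 95% interval from the edgeR quasi-likelihood fit. CST7 (2.61) and PRTN3 (2.40) lie farthest to the right, CTSC (-0.20) is just left of 0, and the intervals of CTSG, PRSS57 and MPO include 0.

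Promoter sequence is shown for the abundant proteases whose windows matched in the RefSeq table (GRCh38.p14), because these neighbours in function changed by such different amounts. Of the 10 genes, 6 matched by symbol. Printed are the 250 bases before the RefSeq start of PRTN3, AZU1 and CTSG, 5′ to 3′ on the gene's strand. The RefSeq starts lie downstream of the GENCODE gene starts given above, by a short distance for PRTN3 and CTSG and by more than 2 kb for AZU1, so the AZU1 window lies inside the GENCODE gene. Capitals mark matches to core motifs of factors known to act on granule genes, searched on both strands: AACNG for MYB, GAGGAA for PU.1, TTNNGNAA for C/EBP proteins and TGNGGT for RUNX proteins.
PRTN3 (chr19:840749-840998, plus strand): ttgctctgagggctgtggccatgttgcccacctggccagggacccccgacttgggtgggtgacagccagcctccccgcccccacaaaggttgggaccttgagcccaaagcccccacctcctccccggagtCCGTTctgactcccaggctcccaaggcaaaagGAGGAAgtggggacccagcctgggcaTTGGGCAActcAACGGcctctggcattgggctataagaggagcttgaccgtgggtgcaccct
AZU1 (chr19:827587-827836, plus strand): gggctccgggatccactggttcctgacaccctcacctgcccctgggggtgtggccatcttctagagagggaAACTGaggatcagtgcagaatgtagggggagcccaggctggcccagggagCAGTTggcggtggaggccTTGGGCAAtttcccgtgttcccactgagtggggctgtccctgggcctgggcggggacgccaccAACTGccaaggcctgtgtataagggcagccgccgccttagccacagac
CTSG (chr14:24576251-24576500, minus strand): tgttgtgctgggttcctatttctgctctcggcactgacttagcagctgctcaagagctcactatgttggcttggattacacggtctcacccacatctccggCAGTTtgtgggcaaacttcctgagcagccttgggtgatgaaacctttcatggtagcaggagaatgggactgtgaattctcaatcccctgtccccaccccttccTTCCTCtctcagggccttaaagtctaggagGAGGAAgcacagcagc
Windows of PRTN3 and AZU1 both held the same C/EBP match, TTGGGCAA, at -62 to -55 in PRTN3 and -111 to -104 in AZU1, counted back from the RefSeq start. The CTSG window held none. PRTN3 had 2 MYB matches and AZU1 had 3, against 1 in CTSG. The PU.1 core occurred 1 time in PRTN3, 2 times in CTSG and was not found in these letters of AZU1. None of the 3 windows held the RUNX core, and no matches overlapped. Of the other 3 windows that matched, PRSS57 held 2 MYB cores and 1 RUNX core, CTSC held 2 MYB cores and 1 C/EBP core, and CFD held none of the 4 motifs. Such short motifs are common: over all 35116 windows of this length, 70.6% held the MYB core, 33.2% the C/EBP core, 23.6% the PU.1 core and 37.7% the RUNX core. These matches describe letters only, not bound sites.

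Of the 10 genes, 5 lie close together on chromosome 19, where AZU1, PRTN3, ELANE and CFD follow one another on the plus strand and PRSS57 starts 156 kb away from ELANE. The 4 adjacent genes were higher, while the coding genes around them were not called higher. Of 25 other coding genes tested that start within 250 kb of any of the 5, edgeR called 0 higher and 3 lower, with a median log2 fold change of -0.15. Over all genes tested, 14.2% were called higher and 9.94% lower. DESeq2 and limma-voom also called 0 of the 25 higher. At an unadjusted p under 0.05 edgeR gave 1 of them, FSTL3, which starts 175 kb before ELANE (0.26, SE 0.10; adjusted p = 0.0891). FSTL3 was called higher without control replicate 3 (adjusted p = 0.0343). On the AZU1 side, PLPPR3 had a log2 fold change of -0.03 (SE 0.22; adjusted p = 0.945), and PTBP1, a splicing regulator, fell to 559.8 ± 12.3 CPM in overexpressing cells, against 692 ± 14.6 CPM in controls (SD, n = 3 each; adjusted p = 0.00582). PALM fell by 1.29 on the log2 scale (SE 0.16) and MISP, between PALM and PTBP1, had a value of -0.77 (SE 0.39; adjusted p = 0.205), which was called lower without overexpressing replicate 1 (adjusted p = 0.0499). On the CFD side MED16, R3HDM4 and ARID3A had log2 fold changes of -0.08, 0.08 and 0.08, and beyond PRSS57 POLRMT and RNF126 had -0.16 and -0.22, none past the test.

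**Figure D3:**
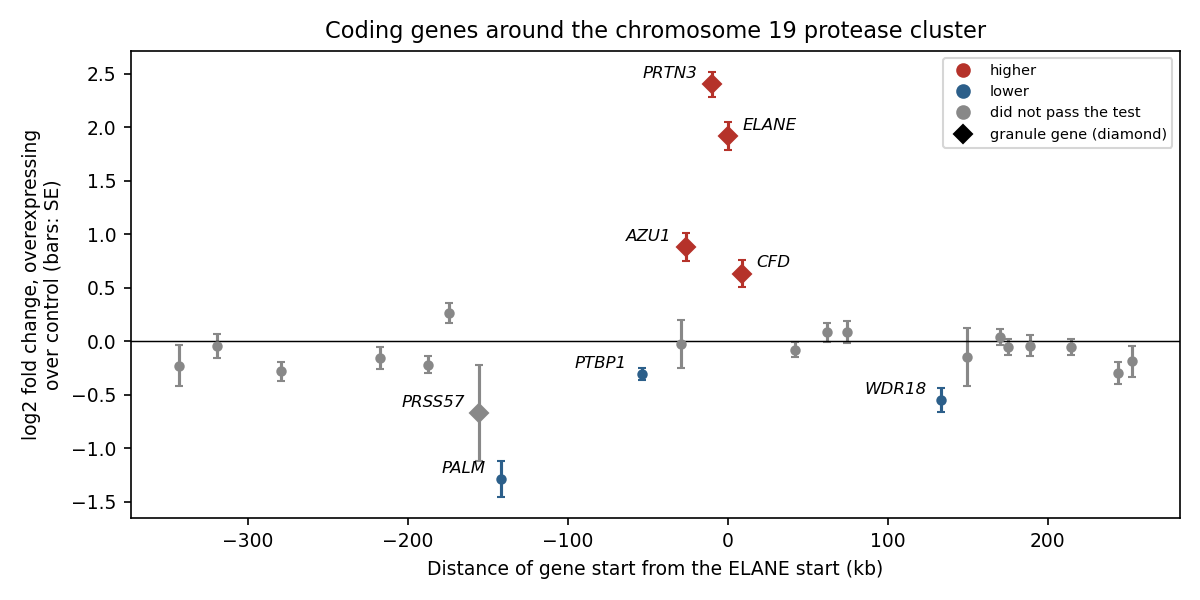
Log2 fold change (bars, SE) of coding genes of at least 1 mean CPM around the chromosome 19 proteases, by distance of their start from the ELANE start in kb. PRTN3 (2.40), ELANE (1.92), AZU1 (0.88) and CFD (0.63) stand above the other genes, whose values lie near or below 0.

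MPO (ENSG00000005381; chromosome 17, 58269856 to 58280935, minus strand) had few counts in both groups. NB4 is usually described as positive for myeloperoxidase, and the strand setting and annotation behind the counts are not known here, so the low value may not stand for a low transcript level. Its counts were 29, 58 and 43 in overexpressing cells and 81, 65 and 52 in controls, which is 0.796 ± 0.259 CPM in overexpressing cells and 1.17 ± 0.26 CPM in controls (SD, n = 3 each). The log2 fold change was -0.56 (SE 0.35; adjusted p = 0.292; 95% interval -1.36 to 0.25). In each overexpressing library CTSG counts were 643 to 1238 times those of MPO, and in the controls 392 to 749 times. Among 14213 coding genes tested, ranked from the highest level per kb of exon, MPO stood at rank 12217 in overexpressing cells and 11604 in controls. By these counts ELANE, PRTN3, AZU1 and CTSG were abundant where MPO was scarce.

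The genes that process and store the proteases also went different ways. CST7 (ENSG00000077984; chromosome 20, 24949230 to 24959928, plus strand), the gene of cystatin F, changed the most of the 10. It was at 1184, 1212 and 1364 CPM in overexpressing cells and at 193, 193 and 229.6 CPM in controls, a ratio of means of 6.11, with no control near the overexpressing range. The log2 fold change was 2.61 (SE 0.10; adjusted p = 5.37e-06). CTSC (ENSG00000109861; chromosome 11, 88293592 to 88337787, minus strand) was at 289, 279.99 and 293 CPM in overexpressing cells and at 334, 333 and 319.6 CPM in controls. The difference was small, with a log2 fold change of -0.20 (SE 0.06; adjusted p = 0.0405), and the call was lost without overexpressing replicate 1, 2 or 3 (adjusted p = 0.108, 0.157 and 0.0622) and without control replicate 1 or 2 (0.135 and 0.117).

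The count of cystatin F transcripts relative to those of its target cathepsin C was 4.10, 4.33 and 4.65 in overexpressing cells and 0.578, 0.579 and 0.718 in controls. CST7 was thus the more counted gene of the pair in every overexpressing library and CTSC in every control, before any correction for length. ELANE counts relative to CTSC were 1.34, 1.42 and 1.64 in overexpressing cells and 0.310, 0.301 and 0.409 in controls.

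CST7 is also expressed by natural killer cells, and NKG7, the most abundant marker on the T and NK cell list, was at 106 ± 10.9 CPM in overexpressing cells and 60.5 ± 10.5 CPM in controls (SD, n = 3 each; adjusted p = 0.00387). Of the 10 listed markers, 5 were tested, with 1 higher and 3 lower, and the summed level of the list was 116 to 136 CPM in overexpressing cells and 109 to 126 CPM in controls. The 3 lower markers, named after their values were seen, were NCAM1, KLRF1 and CD2, with log2 fold changes of -1.87, -0.84 and -4.31. NCAM1 was at 12.8 ± 1.17 CPM in overexpressing cells and 46.6 ± 1.98 CPM in controls, and CD2 was near 1 CPM or less. CD3E and CD3G held no count in any library, and CD3D, CD247 and KLRD1 were under 1 CPM throughout. The neighbours of CST7 on chromosome 20, looked at after the values were seen, were all higher. APMAP, ACSS1 and ENTPD6, the 3 coding genes tested within 250 kb, had log2 fold changes of 0.84, 1.04 and 0.93, and 163 of 286 coding genes of at least 5 CPM on that chromosome were higher and 27 lower, with a median of 0.40. The value of CST7 exceeded those of all 3 neighbours. The part of the chromosome in its change was not tested.

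SRGN (ENSG00000122862; chromosome 10, 69088106 to 69104811, plus strand), the serglycin core protein, was at 1329, 1296 and 1452 CPM in overexpressing cells and at 858, 837 and 809.7 CPM in controls. All overexpressing libraries were higher, by 0.70 on the log2 scale (SE 0.06; adjusted p = 0.000287). ELANE counts were 0.291, 0.307 and 0.331 of those of SRGN in overexpressing cells and 0.121, 0.120 and 0.161 in controls, so the protease rose more than the proteoglycan.

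Levels of different genes were compared per kb of annotated exon. In overexpressing cells CST7 stood first, at 1348 ± 104 CPM per kb, and SRGN followed at 1114 ± 67.1 CPM per kb (SD, n = 3 each). The proteases came next, with PRTN3 at 559 ± 46.9, CTSG at 504 ± 52.5, ELANE at 410.5 ± 49.6 and AZU1 at 198 ± 21.2 CPM per kb. Ranges over libraries overlapped for PRTN3 and CTSG and for CTSG and ELANE, and the other neighbours in the order did not overlap. Within each overexpressing library, with these lengths, PRTN3 stood above CTSG and CTSG above ELANE. CTSC was far lower, at 25.2 ± 0.594 CPM per kb, followed by CFD (15.4 ± 1.36), PRSS57 (1.63 ± 1.10) and MPO (0.226 ± 0.0734). In controls SRGN stood first at 684 ± 19.8 CPM per kb, then CTSG at 442 ± 55.1 and CST7 at 221 ± 22.7. ELANE (109 ± 16.2), AZU1 (108 ± 18.6) and PRTN3 (106 ± 14.8 CPM per kb) were level in controls, and CTSC (28.8 ± 0.721), CFD (9.92 ± 1.11), PRSS57 (2.59 ± 0.397) and MPO (0.333 ± 0.0737) closed the order. ELANE, AZU1 and PRTN3 overlapped there and could not be ordered. Length matters for CTSG and CTSC, whose annotated exons span 1.37 and 11.4 kb, but 0.886 and 7.64 kb in the basic transcript set. With basic lengths CTSG was at 781.5 CPM per kb in overexpressing cells, above PRTN3, and at 686 CPM per kb in controls, where it overlapped SRGN. CTSC was then at 37.6 ± 0.889 CPM per kb in overexpressing cells and 43.1 ± 1.08 CPM per kb in controls, at place 7 in both. Its level per kb thus depends on the length chosen.

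Replicate 3 of both groups stood above its group for the serine proteases. Relative to the mean of its group, on the log2 scale, replicate 3 was higher by 0.19 in overexpressing cells and 0.24 in controls for ELANE. The same values were 0.13 and 0.23 for PRTN3, 0.17 and 0.28 for AZU1, 0.17 and 0.20 for CTSG, 0.14 and 0.15 for CFD, and 0.12 and 0.17 for CST7. PRSS57, at few counts, deviated by 1.03 and 0.23. CTSC deviated by 0.03 in overexpressing replicate 3 and -0.04 in control replicate 3, and SRGN by 0.10 and -0.04. The median over 695 coding genes of chromosome 19 was 0.04 in overexpressing replicate 3 and 0.13 in control replicate 3, so a shift of the same sign was present beyond the proteases, and its part in their values was not tested. Overexpressing replicate 1 was at 0.882 to 1.01 of the mean of replicates 2 and 3 for the 8 genes above 10 CPM. The 9 B cell markers, by contrast, summed to 37.6 CPM in overexpressing replicate 1 and to 102 and 99.9 CPM in replicates 2 and 3, against 47.8 to 58.0 CPM in controls. VPREB1 was at 0, and IGLL1, the highest over all libraries though not among overexpressing ones, was at 9.83 ± 1.41 CPM in overexpressing cells and 33.5 ± 6.20 CPM in controls (SD, n = 3 each). When overexpressing replicate 1 alone was set against the 3 controls, a choice made after the data were seen, each granule gene kept its direction. Log2 fold changes were 2.53 for CST7, 2.30 for PRTN3, 1.79 for ELANE, 0.78 for AZU1 and 0.67 for SRGN. CFD was at 0.54 and CTSC at -0.19. That fit takes its spread from the controls alone and has no replicate check of the single overexpressing library, so its calls for single genes are not given.

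**Figure D4:**
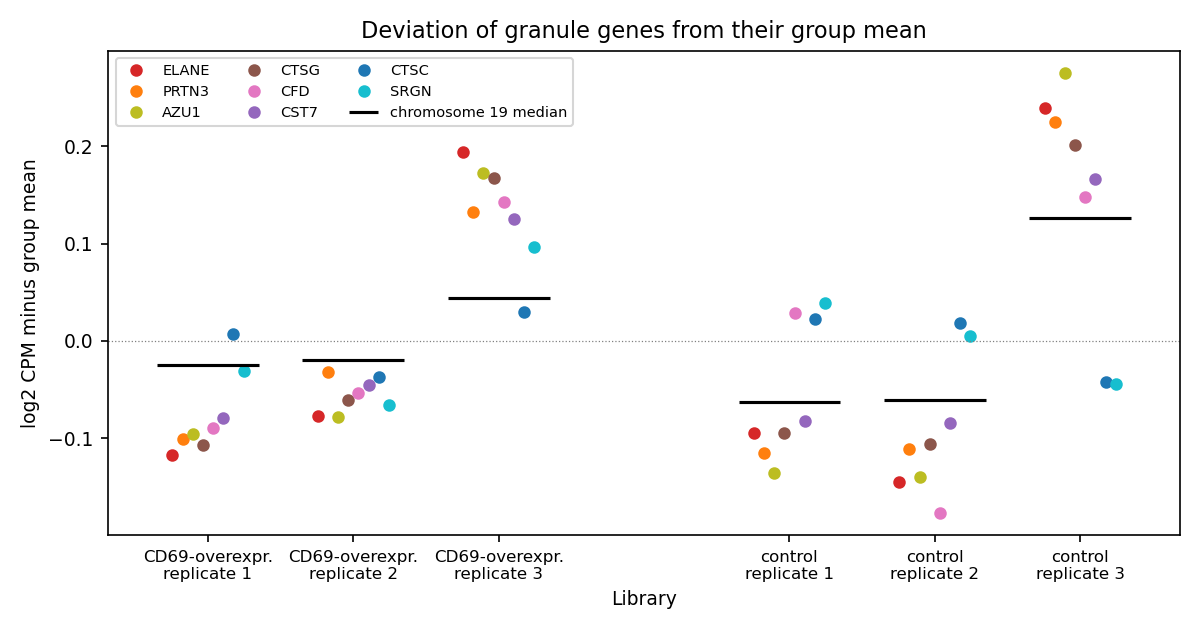
Log2 CPM of 8 granule genes in each library minus the mean of its group, with the median of 695 coding genes of chromosome 19 as a bar. ELANE, PRTN3, AZU1, CTSG, CFD and CST7 lie above 0 in replicate 3 of both groups, while CTSC and SRGN lie near or below 0 in control replicate 3.

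Inhibitors of serine proteases and cathepsins, taken as 1 list, changed in both directions. Of 11 tested inhibitors of serine proteases and cathepsins, 5 were higher and 3 lower, with a median log2 fold change of 1.26, against 0.01 over all genes. The share called was 72.7%, against 24.1% of all genes tested. The median was the value of SERPINB9, named after its values were seen, which did not pass the test (adjusted p = 0.0548). SERPINB9 was at 1.25 ± 0.465 CPM in overexpressing cells and 0.521 ± 0.134 CPM in controls. PI3, above it at 1.33 (SE 1.31), held 7, 68 and 3 counts in overexpressing cells and 15, 16 and 0 in controls. SERPINB1, the cytoplasmic inhibitor of elastase, cathepsin G and proteinase 3, was at 1076 ± 52.8 CPM in overexpressing cells and 194 ± 12.7 CPM in controls (SD, n = 3 each), a log2 fold change of 2.47 (SE 0.07; adjusted p = 2.42e-06). SERPINA1, the secreted elastase inhibitor alpha-1-antitrypsin, rose by 2.36 (SE 0.10) and SERPINB10, a serpin of haematopoietic cells, by 1.72 (SE 0.17), though SERPINB10 shares exons with SERPINB2. The remaining higher genes, named after their values were seen, were SLPI (1.58, SE 0.17) and SERPINB6 (0.43, SE 0.09). SLPI lies on chromosome 20, where the median of coding genes was 0.40, and the part of the chromosome in the SLPI change was not tested. The 3 lower genes, which were named after their values were seen, were SERPINB8, which shares exons with another gene, and the cystatins CSTA and CSTB, inhibitors of cysteine cathepsins, with -0.72, -0.83 and -0.52. Cystatin F was thus higher while the cytosolic cystatins CSTA and CSTB were lower. CST3, another cystatin of the list, did not pass the test (-0.12, SE 0.13; adjusted p = 0.561). It was at 175 ± 22.9 CPM in overexpressing cells and 190 ± 31.4 CPM in controls.

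Of 10 other cysteine proteases of the cathepsin C family and legumain that were tested, 2 were higher and 0 lower by edgeR, and the median was -0.25. The share called was 20%, against 24.1% of all genes tested. At an unadjusted p under 0.05 edgeR gave 2 of the 10 as lower. DESeq2, limma-voom, RLE or upper-quartile factors, a replicate block and the fit without control replicate 3 each called 1 lower. Without overexpressing replicate 1 there were 3 lower. CTSL, named after its values were seen, was at 4.82, 1.03 and 0.784 CPM in overexpressing replicates 1, 2 and 3 and at 5.59, 5.92 and 6.08 CPM in controls, and CTSF and LGMN were likewise low in overexpressing replicates 2 and 3 and within the control range in replicate 1. CTSV, the gene of a cathepsin closely related to cathepsin L, was at 5.33 ± 1.03 CPM in overexpressing cells and 1.07 ± 0.235 CPM in controls, and CTSZ was at 275 ± 13.4 CPM in overexpressing cells and 189.8 ± 21.5 CPM in controls (SD, n = 3 each). CTSZ, with a log2 fold change of 0.54, lies on chromosome 20, where the median of coding genes was 0.40. The part of the chromosome in its change was not tested. Of the 20 lysosomal hydrolases that azurophil granules also hold, 6 were higher and 6 lower, with a median of -0.07. Their share called was 60%, against 24.1% of all genes tested. The aspartic protease gene CTSD, which shares exons with another annotated gene, was at 2469 ± 158 CPM in overexpressing cells and 857 ± 120 CPM in controls.

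Of 7 other azurophil contents tested that are not proteases, 57.1% were called, against 24.1% of all genes tested. Among them 2 were higher and 2 lower, with a median of 0.14. These counts rest on single libraries: 5 were higher without control replicate 3 and 1 without overexpressing replicate 2 or 3 or control replicate 1 or 2. None was lower without overexpressing replicate 2 or control replicate 1, and 1 without overexpressing replicate 1 or 3 or control replicate 2. RNASE3, the eosinophil cationic protein, which is similar in sequence to RNASE2 so that its counts are uncertain, rose by 0.49 (SE 0.12). The call was lost without overexpressing replicate 2 or 3 (adjusted p = 0.0654 and 0.0746) and without control replicate 1 or 2 (0.0931 and 0.0956). The bactericidal protein gene BPI fell by 0.67 (SE 0.15), and that call was lost without overexpressing replicate 2 (adjusted p = 0.0563) or control replicate 1 (0.0627). The defensin gene DEFA1, which has near-identical copies, held 21, 11 and 16 counts in overexpressing cells and 0 in every control, and DEFA4 held none anywhere.

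Of 21 tested genes that sort granule cargo, including those mutated in congenital neutropenia, 3 were higher and 2 lower, with a median of 0.02. The share called, 23.8%, was near the 24.1% of all genes tested, and 1 was lower when any 1 library other than control replicate 1 was left out. UNC13D and RAB27A, which act in granule release, rose by 0.48 (SE 0.07) and 0.36 (SE 0.07), and the proton pump subunit TCIRG1 fell by 0.53 (SE 0.08), where RAB27A and TCIRG1 share exons with other genes. Of 18 tested genes that build the glycosaminoglycan chains of serglycin, 1 was higher and 3 lower, with a median of -0.10, and 2 were higher without control replicate 3. Their share called, 22.2%, was also near that of all genes tested. The chondroitin polymerase CHSY1 rose by 0.65 (SE 0.10), while the sulfotransferase CHST11 fell by 0.63 (SE 0.07) and CSGALNACT1, which starts the chain, by 1.32 (SE 0.20). Of 14 genes of haem synthesis and myeloperoxidase folding, 4 were higher and 3 lower, with a median of -0.01. Here 50% were called, against 24.1% of all genes tested. ALAS1, the first enzyme of haem synthesis, rose by 0.58 (SE 0.06), and UROD and the folding enzyme PDIA3, which overlaps genes on the opposite strand, fell by 0.67 (SE 0.09) and 0.60 (SE 0.06). All 14 passed the filter on low counts.

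Of 14 transcription factors that act on azurophil granule genes, 1 was higher and 2 were lower, with a median of 0.02. The share called, 21.4%, was near the 24.1% of all genes tested. Of the factors, 2 were higher without overexpressing replicate 1 and 3 without control replicate 3. Just 1 was lower without overexpressing replicate 2 or any 1 control. IRF8, which acts in monocyte development, was at 130.3 ± 1.84 CPM in overexpressing cells and 79.7 ± 1.04 CPM in controls (SD, n = 3 each; adjusted p = 0.000143). The 8 monocyte markers summed to 53.6 to 77.6 CPM in overexpressing cells and 64.2 to 68.5 CPM in controls, and 2 were higher and 2 lower, with a median log2 fold change of -0.66. FCN1, the highest over all libraries, was at 41.4 ± 1.76 CPM in overexpressing cells and 19.2 ± 1.46 CPM in controls, while S100A9 was at 6.86 ± 1.47 CPM in overexpressing cells and 20.8 ± 2.84 CPM in controls. Their part in the IRF8 result was not tested. RUNX1 fell to 102 ± 4.87 CPM in overexpressing cells, against 182 ± 18.7 CPM in controls (adjusted p = 0.000508). SPI1, which encodes PU.1, fell by 0.37 (SE 0.11; adjusted p = 0.0398), a call lost without any 1 of overexpressing replicates 1 and 2 (adjusted p = 0.111 and 0.151) or of control replicates 1, 2 and 3 (0.0667, 0.0635 and 0.0652). MYB, named after its value was seen, had a value of 0.33 (SE 0.10; adjusted p = 0.0529).

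Of 11 tested genes of specific and gelatinase granules, which form later, 1 was higher and 4 lower, with a median of -0.43. The share called was 45.5%, against 24.1% of all genes tested. The lower count was 1 without overexpressing replicate 2 or control replicate 1 and 2 without overexpressing replicate 3 or control replicate 2 or 3, and 2 were higher without control replicate 1. The chitinase-like CHI3L1 rose by 0.95 (SE 0.07), CEACAM8 fell by 2.14 (SE 0.45) at 1.05 CPM or less on average in either group, and PTX3, which overlaps a gene on the opposite strand, fell by 0.60 (SE 0.14), a call lost without overexpressing replicate 2 or 3 (adjusted p = 0.0693 and 0.0507) and control replicate 1 or 3 (0.0622 and 0.0509). Of the 12 listed granule proteases of lymphocytes and mast cells, 4 passed the filter. By edgeR 3 were lower and 0 higher, also at an unadjusted p under 0.05 for higher. Of the 4, 75% were thus called, against 24.1% of all genes tested. DESeq2 and limma-voom called 2 lower, without TPSD1 (adjusted p = 0.0609 and 0.0540), and 0 higher. Among them the mast cell tryptase genes TPSAB1 and TPSB2, which are so alike that their counts are uncertain, were abundant. TPSAB1 was at 554, 555 and 639 CPM in overexpressing cells and 879.7, 850.5 and 1098 CPM in controls, a log2 fold change of -0.69 (SE 0.11; adjusted p = 0.00358), and TPSB2 fell by 0.73. TPSD1 fell by 1.14 (SE 0.33), at 0.476 ± 0.0647 CPM in overexpressing cells and 1.05 ± 0.259 CPM in controls, and its call was lost without any 1 of the libraries other than control replicate 1 (adjusted p = 0.0841 to 0.106). Granzymes A, B, H, K and M and perforin were under 1 CPM in every library. The markers of mast cells, basophils and eosinophils summed to 672 to 787 CPM in overexpressing cells and 1049 to 1347 CPM in controls, nearly all of it tryptase, with CLC at 0 and CPA3, HDC, FCER1A and EPX under 1 CPM.

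**Figure D5:**
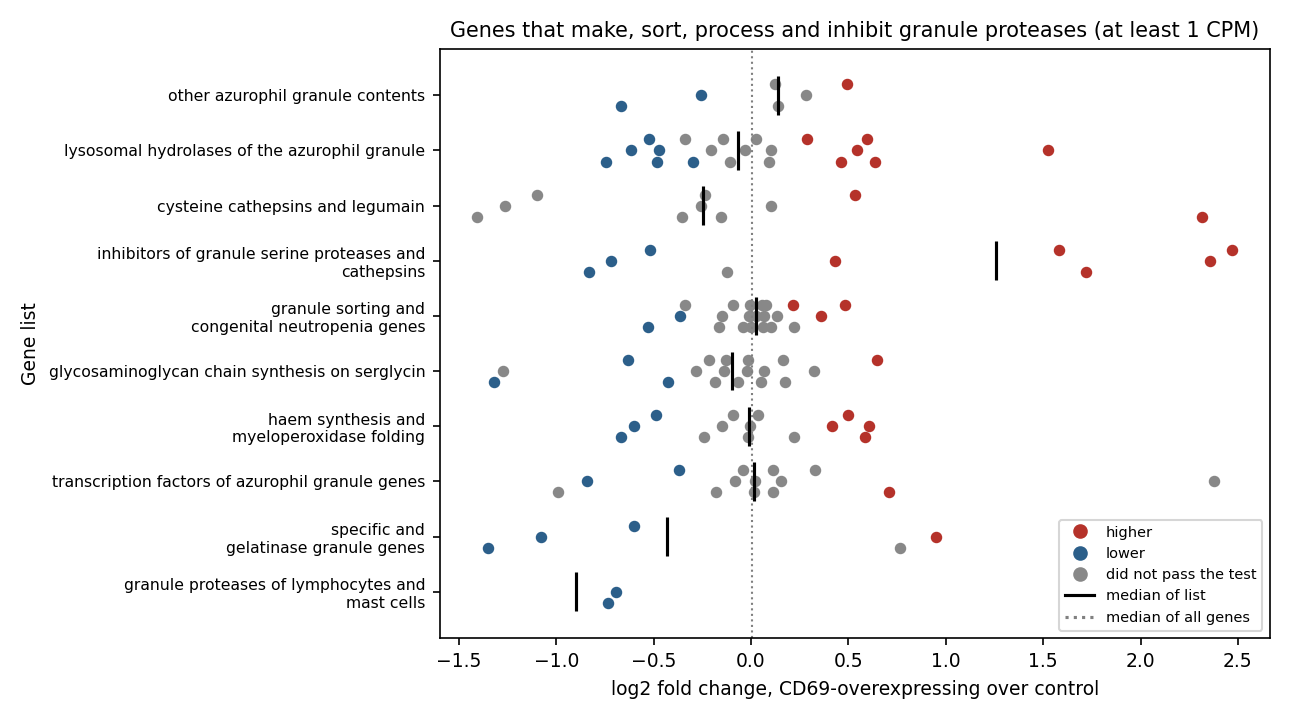
Log2 fold change of genes of at least 1 mean CPM in each list, coloured by the edgeR call, with the median of all tested genes of the list as a bar and that of all genes (0.01) as a dotted line. The inhibitors spread from below -0.5 to 2.47 with a median of 1.26, the value of SERPINB9, which lay under 1 mean CPM and is not plotted. The medians of the sorting, glycosaminoglycan, haem and transcription factor lists lie within 0.1 of 0.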

How the data were processed

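Per the submitters' processing notes, reads were handled with FastQC, fastp, STAR and featureCounts of Subread on GRCh38 (hg38). Nothing used here states versions, annotation release, strand setting or counting unit, while the libraries are labelled strand-specific. The authors deposited 1 table of raw values per gene, treated here as estimated counts, all whole numbers. Symbols were found for 61757 of 61806 genes, and positions and exon lengths came from GENCODE release 29 (GRCh38).

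Genes kept by filterByExpr (19485) were scaled by TMM and tested with the edgeR 4.0.16 quasi-likelihood test in R 4.3.3, two-sided, adjusted by Benjamini-Hochberg over all genes, threshold 0.05. CPM carry TMM factors. SEs come from the F statistic and intervals from its t quantile. No library was a duplicate, since counts divided by 4 differed within groups beyond sampling noise (2.52 to 15.9, chi-square over its degrees of freedom). Nothing says that they came from separate cultures, so p-values measure only the spread between libraries. The fit was tested on simulated data. Of 50 genes simulated at each log2 fold change, it called 6 at 0.5, 32 at 1, 36 at 2 and 43 at 3. Of 19285 unchanged genes it called 6. A gene that did not pass the test may therefore still have changed.

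The members, lists and tests were chosen with earlier results of these data known. Named were all members, up to 3 called genes of each list with the smallest p, coding genes between PRSS57 and CFD and the nearest 3 on either side, and the most abundant marker of each marker list. The alternatives were RLE and upper-quartile factors, no filter, at least 50 counts in 3 libraries, DESeq2 1.42.0, limma-voom (limma 3.58.1), a null fold of 1.2, a replicate block, counts divided by 4, TMM without chromosomes 6, 15, 20 and X for CST7, and each library left out. Some genes of the lists are not reported here. Protein sequences were not used here.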

Additional observations from a re-analysis of the deposited data

How the results depend on the processing

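The direction of each of the 10 granule genes held under all alternatives listed with the methods, and the 6 higher calls held in each of them. CTSC was the unstable call. Lower granule genes numbered 0 with no filter and 0 against a fold of 1.2, and 0 to 1 with a library left out, where the 1 without overexpressing replicate 3 was PRSS57. Against a fold of 1.2, 1723 of all genes were higher and 874 lower, with 15 genes of the pathway lists lower. With a library left out, 1783 to 2917 genes were higher and 1137 to 2226 lower, and 20 to 31 list genes were higher and 16 to 26 lower. Without overexpressing replicate 2 the counts were 1783, 1137 and 16 lower list genes, and without control replicates 1 and 2 the lower genes numbered 1227 and 1287. In the fit of overexpressing replicate 1 on its own, added later, 797 genes were called higher and 380 lower, 10 and 6 of them in the lists, with 4 and 0 granule genes. The controls alone supply its spread.

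The replicate number did not pair the libraries: deviations of same-numbered libraries correlated by -0.03, 0.05 and 0.07. With the replicate block 3194 genes were higher and 2669 lower, 7 granule genes were higher with CTSG added (adjusted p = 0.0142) and 1 was lower, and 31 list genes were higher and 35 lower. Signs turned for genes near 0 that were never called. With a library left out, PLPPR3 ranged from -0.22 to 0.19, ARID3A from -0.0056 to 0.15, and R3HDM4 was at -0.030 with overexpressing replicate 1 alone. PLPPR3 was at 0.00054 with limma-voom and 0.0020 with the block. MPO and PRSS57 rest on few fragments, and their intervals reach below -1 on the log2 scale.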
